A study of Mus musculus with 6 samples.

Results

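The 6 genes described here make up the core of endocannabinoid signalling: the CB1 cannabinoid receptor gene Cnr1, the synthesis enzymes Dagla, Daglb and Napepld, and the breakdown enzymes Mgll and Faah. They were taken by name, whatever their level, and are 6 of the 27514 genes that all 3 expression matrices share. Each has a single row in every matrix. The study, on leptin resistance, sequenced single nuclei of the mouse hypothalamus that had been sorted for the neuronal nuclear protein NeuN, with the 10x Genomics 3' v3 kit. There were 3 pools of nuclei: diet-induced-obese mice on high-fat feed (DIO), ob/ob mice on chow (OB), which make no functional leptin, and mice on chow (chow). Within each pool, hashtag antibodies separated nuclei of animals given rapamycin, an inhibitor of the kinase complex mTORC1, from nuclei of animals given vehicle. This gives 6 hashtag samples, 1 for each pool and treatment, and no replicate of any of them. The age and strain of the animals, the dose and length of treatment, and the number of mice behind a hashtag are not given in the sources used here. Every nucleus had passed the same NeuN sort, and non-neuronal nuclei are those that remained after it.

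Endocannabinoids are lipids that neurons make on demand and that travel back across the synapse. The CB1 receptor sits mostly on axon terminals, couples to Gi and Go proteins and lowers transmitter release. 2-arachidonoylglycerol (2-AG) is cut from membrane diacylglycerol by the diacylglycerol lipases encoded by Dagla and Daglb, and most of it is hydrolysed by monoacylglycerol lipase, encoded by Mgll. Anandamide is released from its membrane precursor by the phospholipase D encoded by Napepld, among other routes, and is hydrolysed by fatty acid amide hydrolase, encoded by Faah. In the hypothalamus the system is known for its part in feeding and energy balance.

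In the mouse build mm10 (GRCm38), Cnr1 lies at chr4:33923171-33948831 and Faah on the same chromosome at chr4:115996668-116018837. Daglb lies at chr5:143464484-143504442 and Napepld at chr5:21662901-21701622, with Mgll at chr6:88724412-88828360 and Dagla at chr19:10245265-10304877. RefSeq promoter windows of GRCm38.p6, each running from 250 bases before to 50 bases after an annotated start, were available for 5 of the 6 genes and numbered 8. Of the 3 Cnr1 windows the ones with the most and the fewest CG dinucleotides are shown, with that of Napepld, because Cnr1 and Napepld were the 2 members called higher in the ventromedial class of neurons described below. Capitals mark CG dinucleotides.
Cnr1, upstream start, chr4:33924014-33924313, plus strand: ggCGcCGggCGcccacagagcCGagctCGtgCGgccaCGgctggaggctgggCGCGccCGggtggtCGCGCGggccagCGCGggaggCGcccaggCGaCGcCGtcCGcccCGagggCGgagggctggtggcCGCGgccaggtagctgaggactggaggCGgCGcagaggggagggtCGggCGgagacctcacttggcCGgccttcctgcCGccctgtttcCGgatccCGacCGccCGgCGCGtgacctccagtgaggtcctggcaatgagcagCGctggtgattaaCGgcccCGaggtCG
Cnr1, downstream start, chr4:33926130-33926429, plus strand: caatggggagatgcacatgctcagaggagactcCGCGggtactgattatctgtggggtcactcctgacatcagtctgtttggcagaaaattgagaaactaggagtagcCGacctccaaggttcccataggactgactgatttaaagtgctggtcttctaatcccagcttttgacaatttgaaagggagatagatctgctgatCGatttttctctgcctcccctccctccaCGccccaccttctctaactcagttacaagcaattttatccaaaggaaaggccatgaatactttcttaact
Napepld, chr5:21701573-21701872, minus strand: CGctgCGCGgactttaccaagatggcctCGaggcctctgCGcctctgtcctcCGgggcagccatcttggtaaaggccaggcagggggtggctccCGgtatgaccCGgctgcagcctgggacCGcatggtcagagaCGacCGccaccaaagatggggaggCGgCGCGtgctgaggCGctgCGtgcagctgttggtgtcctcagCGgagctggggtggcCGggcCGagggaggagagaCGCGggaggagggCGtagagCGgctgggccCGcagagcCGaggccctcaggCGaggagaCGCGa
The upstream Cnr1 window held 40 CG dinucleotides, the middle one, not shown, 33 and the downstream one 5, against a median of 7 over the 32851 windows of all genes. The Napepld window held 28, that of Daglb 11 and that of Faah 16. The Mgll windows held 32 and 42, and Mgll was not called in the ventromedial class. The motif AAGGTCA, bound by Nr5a1 (a nuclear receptor that marks the ventromedial nucleus) and by related nuclear receptors, was searched for on both strands. It was in 0 of the 8 windows of these genes and in 4.72% of all windows, which says only that these letters are not in these windows. The reads are counted per gene, so the start each class of neurons uses was not measured.

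After filtering, 28599 nuclei carried a treatment hashtag and 26196 of them were neuronal by their marker UMIs (unique molecular identifiers, 1 per captured RNA molecule). Neuronal nuclei numbered 5777 with rapamycin and 4348 with vehicle in DIO, 4778 and 1605 in OB, and 4701 and 4987 in chow. The median neuronal nucleus held 5693 UMIs in DIO, 3328 in OB and 5898 in chow. The OB pool stands apart in several ways. It was shallower, and it was counted with Cell Ranger 7.0.1 where the other matrices carry 6.0.0. Its matrix lists 31053 genes where the others list 27998. In OB 3731 nuclei received no hashtag call, against 406 in DIO and 191 in chow. Calls by the ratio of the tags gave 5513 vehicle and 5367 rapamycin nuclei in OB, against 2323 and 5607 by the calls used here. The OB vehicle values thus depend most on the hashtag rule. Summed markers of astrocytes and tanycytes (6 genes, none at 0) in the neuronal sums were 54.4 and 77.9 counts per 1000000 UMIs (CPM) in OB with rapamycin and with vehicle, and between 21.5 and 23.1 CPM in the other 4 samples. Their part in the results was not tested. The pools shared between 31 and 38 cell barcodes, at most 0.309% of a pool.

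Over all neurons, all 6 genes were detected in every sample. Cnr1 averaged 35.5 ± 3.87 CPM, Dagla 31.4 ± 3.29 CPM, Daglb 30.9 ± 1.45 CPM, Mgll 19.3 ± 1.68 CPM, Faah 34.5 ± 1.53 CPM and Napepld 28.1 ± 2.35 CPM (SD, n = 6 hashtag samples each). These are levels of each gene on its own scale, and they are not corrected for gene length. The SD mixes pool and treatment, since each sample is a group of its own.

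Cnr1 was the member that differed most between transmitter classes and was lower in GABAergic than in glutamatergic neurons. GABAergic nuclei (5592) had at least 2 UMIs of Slc32a1, Gad1 and Gad2 together and none of Slc17a6, and glutamatergic nuclei (2536) the reverse. The other 18068 neuronal nuclei met neither rule. The Cnr1 level in GABAergic neurons was 19.9 CPM at the lowest, 26.5 CPM at the median and 29.5 CPM at the highest of 6 samples. In glutamatergic neurons it was 47.6 CPM at the lowest, 53.1 CPM at the median and 66.6 CPM at the highest. The 2 sets of values did not overlap, and Cnr1 was lower in GABAergic neurons in 6 of 6 samples, with means of 25 ± 4.11 and 54.4 ± 6.72 CPM (SD, n = 6 each). The log2 fold change was -1.04 (SE 0.08) with an adjusted p of 8.54e-12, from edgeR's quasi-likelihood test over all genes with the hashtag sample as a block. Across all genes tested, 2394 of 14549 passed an adjusted p of 0.05, or 16.5%, and 2 of the 6 members did, Cnr1 and Dagla. The median log2 fold change was 0.01 over all genes and -0.14 over the 6 members. GABAergic nuclei were also shallower, with a median of 6424.5 UMIs against 7175.5 in glutamatergic nuclei in the chow pool. With every nucleus thinned to 1500 UMIs, Cnr1 remained lower, at an adjusted p of 8.42e-13. Because the samples are 1 per group, the p measures the spread of the class difference over the 6 hashtag samples.

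**Figure D1:**
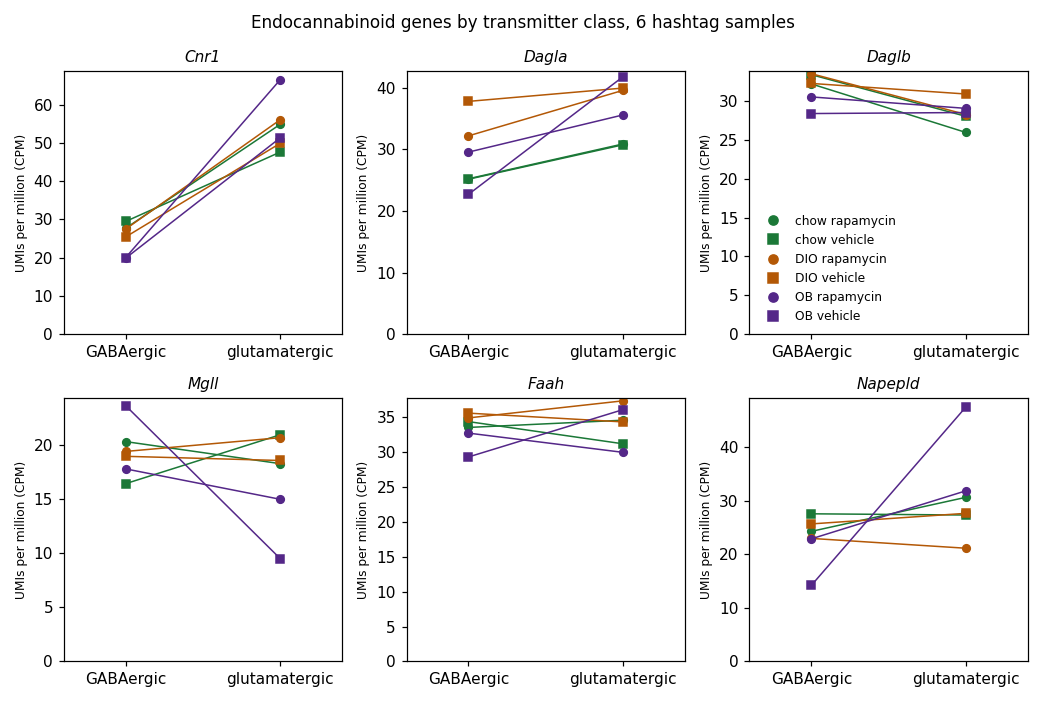
Level of the 6 genes in CPM in GABAergic neurons (left of each pair) and glutamatergic neurons (right), with 1 point per hashtag sample, coloured by pool, and a line joining the points of a sample. Cnr1 lies between 19.9 and 29.5 CPM in GABAergic neurons and between 47.6 and 66.6 CPM in glutamatergic neurons, and the other 5 genes overlap between the classes.

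Within neurons, Cnr1 was highest in the ventromedial class, nuclei with a UMI of Nr5a1 or Fezf1 and of Slc17a6 (397 nuclei). With DIO, OB and chow in that order, the ventromedial level was 117, 143 and 133 CPM with rapamycin, and 124, 53.2 and 127 CPM with vehicle. In 5 of the 6 samples it was above 100 CPM, and the low OB vehicle value rests on 4 UMIs in 15 nuclei. Its lowest sample was above every value of 10 of the 11 other classes. The exception was the Pomc class, where the chow rapamycin sample reached 60.0 CPM on 8 UMIs in 17 nuclei and the other 5 samples stayed at or under 16.5 CPM. The mean over samples ran from 116 ± 32.2 CPM in ventromedial neurons (SD, n = 6) to 5.05 ± 3.97 CPM in the Hdc class (SD, n = 6), a ratio of 23.0. Next below the ventromedial class came Lhx1 and Vipr2 neurons with a mean of 37.7 CPM, Lepr neurons with 36.8 CPM, Lmx1a and Lmx1b neurons with 33.8 CPM and Sim1 and Otp neurons with 26.4 CPM. Lower means were 21.8 CPM in Hcrt neurons (2 samples), 15.7 CPM in Th and Ddc neurons, 15.7 CPM in Foxb1 neurons, 15.2 CPM in Pomc neurons, 12.4 CPM in Agrp neurons and 7.72 CPM in Pmch neurons. Below the ventromedial class no neighbours in this order were separated, since the values of each class overlapped those of the next.

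**Figure D2:**
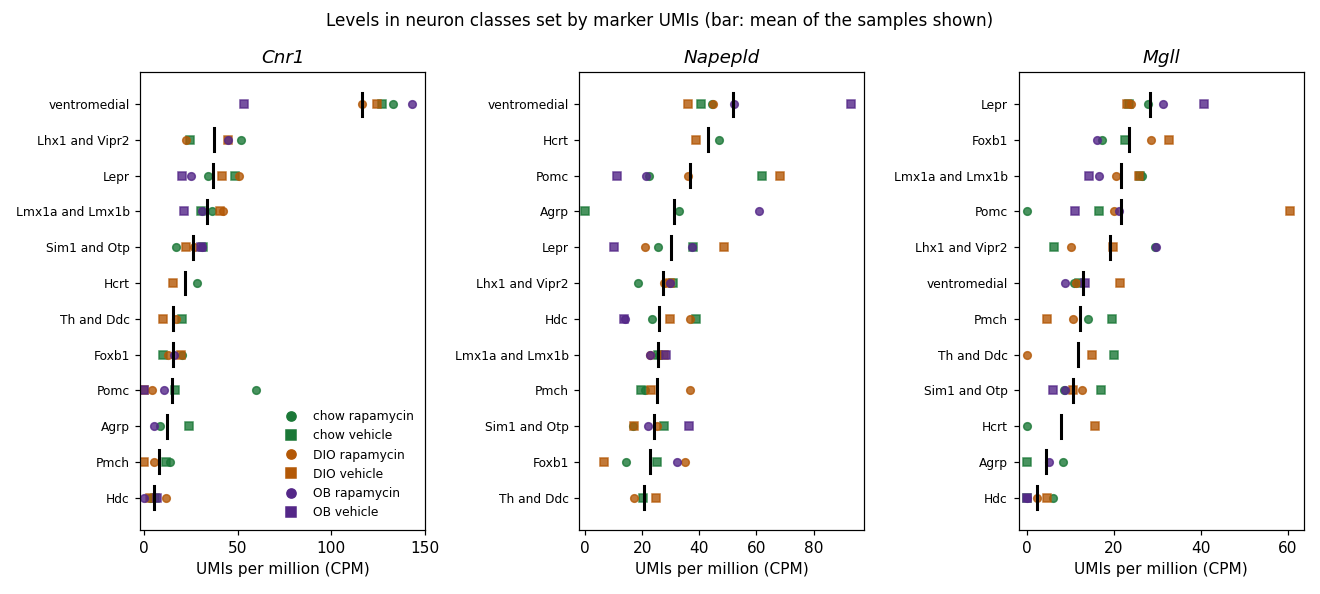
Level of Cnr1, Napepld and Mgll in CPM across the 12 marker classes of neurons, with 1 point per hashtag sample of at least 10 nuclei and a bar at the mean. Cnr1 averages 116 CPM in the ventromedial class and 5.05 CPM in the Hdc class, and Mgll averages 28.3 CPM in the Lepr class and 2.14 CPM in the Hdc class.

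The ventromedial class was then set against glutamatergic neurons outside it, a test chosen after the class levels had been seen. The class needs a single Slc17a6 UMI and may hold Slc32a1, Gad1 or Gad2 UMIs, so both sides follow different transmitter rules. Many of its nuclei were not in the glutamatergic set. In chow with rapamycin the class held 90 nuclei, and leaving it out took the glutamatergic nuclei from 517 to 483. Cnr1 averaged 116 ± 32.2 CPM in the ventromedial class and 48.3 ± 4.79 CPM in other glutamatergic neurons (SD, n = 6 each), and was higher in 6 of 6 samples. Its log2 fold change was 1.42 (SE 0.11) with an adjusted p of 1.52e-16 from edgeR. Of all genes tested, 1449 of 10348 passed, or 14%, and 2 of the 6 members passed, Cnr1 and Napepld. With those ventromedial nuclei that were in the glutamatergic set taken out of it, Cnr1 was still lower in GABAergic than in glutamatergic neurons. The log2 fold change was -0.85 (SE 0.08), with an adjusted p of 1.86e-09 from edgeR. In that comparison 2241 of 14431 genes passed, or 15.5%, and the 2 members that passed were again Cnr1 and Dagla.

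At the other end, neurons of the Hdc class, which express histidine decarboxylase, the enzyme that makes histamine, held 11 Cnr1 UMIs in 243 nuclei. Cnr1 in them was at 11.5 CPM with rapamycin and 3.11 CPM with vehicle in DIO, 0 and 6.87 CPM in OB, and 2.93 and 5.97 CPM in chow. Every Hdc value was below the lowest value of other neurons, 30.6 CPM. The log2 fold change against other neurons was -2.82 (SE 0.32) with an adjusted p of 2.62e-17 from edgeR, and the pooled level was 0.146 times that of all neurons (95% counting interval 0.0730 to 0.262). In this comparison 4373 of 14704 genes passed, or 29.7%, and 2 of the 6 members passed, Cnr1 and Mgll. Hdc nuclei held a median of 8572 UMIs in DIO, 5603 in OB and 8733.5 in chow, against 5693, 3328 and 5898 UMIs in all neurons.

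The share of nuclei with a Cnr1 UMI followed the same order. After thinning to 1500 UMIs, 17.9% of ventromedial nuclei had a Cnr1 UMI in DIO, 18.3% in OB and 16.5% in chow. For all neurons the thinned shares were 4.90% in DIO, 4.47% in OB and 4.91% in chow. In Hdc nuclei they were 1.72% in DIO, 0% in OB and 1.35% in chow. Without thinning, the shares were 49.1%, 41.7% and 48.8% of ventromedial nuclei and 16.8%, 9.32% and 16.98% of all neurons in DIO, OB and chow. Astrocyte and tanycyte nuclei gave a low reference, though whether they lack Cnr1 was not tested. Of those deep enough to thin, 0 of 141 in DIO, 1 of 243 in OB and 0 of 114 in chow had a Cnr1 UMI. Their median depth was 2468, 1670 and 2495 UMIs before thinning, and a count of 0 of 141 allows a share of up to 2.13%. The Hdc shares are at the level of this background within their counting intervals, so they are not read as expression.

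Cnr1 UMIs were concentrated in a small share of nuclei. Neurons with at least 3 Cnr1 UMIs were 1.57% of neurons in DIO, 0.454% in OB and 1.54% in chow, and held 22.9%, 12.8% and 23.0% of the Cnr1 UMIs of those pools. For Dagla, nuclei with at least 3 UMIs held 3.66% of its UMIs in chow, and for Mgll 8.73%. Of the nuclei with at least 3 Cnr1 UMIs, ventromedial nuclei made up 15.6% with rapamycin and 11.6% with vehicle in DIO, 11.1% and 0% (0 of 11) in OB, and 16.3% and 18.8% in chow. Among neurons with no Cnr1 UMI the ventromedial share was between 0.554% and 1.18%. No Hdc nucleus was among those with at least 3 Cnr1 UMIs in any sample. Nuclei rich in Cnr1 were chosen by their Cnr1 count and were deeper, at a median of 8735.5 UMIs against 5197.5 in DIO with rapamycin. The 3 genes with the highest ratio in them were Adamts9 (a secreted metalloprotease), at 77.4 CPM against 12.5 CPM in neurons without Cnr1, Hydin at 109 against 23.6 CPM and Gpr149 (an orphan receptor) at 153 against 39.5 CPM. Each was higher in 6 of 6 samples, as a description with no test.

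Among the synthesis enzymes, Dagla was lower in GABAergic than in glutamatergic neurons, by a smaller step than Cnr1. Dagla, the lipase that makes most 2-AG at synapses of the adult brain, was at 22.7, 27.4 and 37.8 CPM in GABAergic neurons and at 30.8, 37.6 and 41.8 CPM in glutamatergic neurons (lowest, median and highest of 6 samples). The 2 ranges overlapped, but within a sample Dagla was lower in GABAergic neurons in 6 of 6. Means were 28.8 ± 5.59 and 36.5 ± 4.80 CPM (SD, n = 6 each), and the log2 fold change was -0.30 (SE 0.08, edgeR adjusted p of 0.00390). The call was lost without the chow pool (adjusted p of 0.0611) and after thinning to 1500 UMIs (adjusted p of 0.826). Across classes Dagla ran from 50.3 ± 24.2 CPM in Foxb1 neurons, a class of the mammillary region (SD, n = 5), to 19.0 ± 15.5 CPM in Pmch neurons (SD, n = 4), a ratio of 2.65. No neighbours in that order were separated. In ventromedial neurons Dagla averaged 48.0 ± 11.7 CPM against 35.8 ± 4.99 CPM in other glutamatergic neurons (SD, n = 6 each), higher in 6 of 6 samples, but it did not pass the edgeR test (log2 fold change 0.34, SE 0.15, adjusted p of 0.119).

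Daglb, the second diacylglycerol lipase, had no call between neuron classes. It averaged 31.7 ± 1.95 CPM in GABAergic and 28.5 ± 1.60 CPM in glutamatergic neurons (SD, n = 6 each), with a log2 fold change of 0.15 (SE 0.08, edgeR adjusted p of 0.212). Its SD over samples was the smallest of the 6 genes over all neurons. Hcrt neurons, with 2 samples at 46.8 and 54.6 CPM, headed its order of classes, and Th and Ddc neurons followed with a mean of 43.1 CPM. The other 10 classes averaged between 22.0 and 30.5 CPM.

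Napepld, the anandamide-releasing phospholipase, was highest in the same class as Cnr1. It was at 36.0 CPM at the lowest and 93.2 CPM at the highest of the 6 ventromedial samples, with a mean of 51.8 ± 20.9 CPM, against 28.9 ± 8.34 CPM in other glutamatergic neurons (SD, n = 6 each). It was higher in 6 of 6 samples, and the log2 fold change was 0.78 (SE 0.16, edgeR adjusted p of 0.000128). In nuclei with at least 3 Cnr1 UMIs Napepld was at 44.8 CPM, against 27.1 CPM in neurons with none, higher in 6 of 6 samples. Between transmitter classes it averaged 22.9 ± 4.63 CPM in GABAergic and 31.0 ± 8.90 CPM in glutamatergic neurons (SD, n = 6 each), a difference that did not pass (log2 fold change -0.22, SE 0.10, edgeR adjusted p of 0.173). With transmitter classes set at 1 UMI it did pass, with a log2 fold change of -0.27 and an edgeR adjusted p of 0.00208.

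The breakdown enzymes separated from one another. Mgll had the widest range between neuron classes after Cnr1, from 28.3 ± 6.83 CPM in Lepr neurons to 2.14 ± 2.61 CPM in Hdc neurons (SD, n = 6 each), a ratio of 13.3. Its 6 values in Lepr neurons, between 22.9 and 40.6 CPM, lay above every value of 7 of the other 11 classes in samples of at least 10 nuclei. Hdc neurons held 6 Mgll UMIs in 243 nuclei, and every Hdc sample, at up to 5.85 CPM, was below the 17.4 CPM of the lowest sample of other neurons. The log2 fold change was -2.81 (SE 0.44, edgeR adjusted p of 1.71e-09), and the pooled level was 0.152 times that of all neurons (95% counting interval 0.0557 to 0.331). Agrp neurons followed with a mean of 4.43 CPM over 3 samples, which held 1, 0 and 1 UMIs. The OB vehicle sum of Agrp neurons, left out at 9 nuclei, held 3 UMIs at 68.7 CPM. By tag ratio the Agrp mean was 17.3 CPM over 4 samples, so its low place in the order is not firm. Hdc neurons therefore held few UMIs of both the receptor and the lipase that clears its main ligand, while Dagla, Daglb, Faah and Napepld in them did not pass the edgeR test (adjusted p of 0.0597, 0.771, 0.933 and 0.953). Dagla, at a log2 fold change of -0.51, did pass with no filter, by tag ratio and without OB (edgeR adjusted p of 0.0391, 0.0362 and 0.0439), but not with DESeq2, without chow or without DIO. Mgll averaged 19.4 ± 2.47 CPM in GABAergic and 17.2 ± 4.33 CPM in glutamatergic neurons (SD, n = 6 each), and the log2 fold change of -0.05 (SE 0.11) did not pass (edgeR adjusted p of 0.821). The fitted fold and the means differ in sign here, and neither is read as a direction.

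Faah was the most even member between transmitter classes, with 33.4 ± 2.25 CPM in GABAergic and 34.0 ± 2.84 CPM in glutamatergic neurons (SD, n = 6 each). The log2 fold change was -0.04 (SE 0.07, edgeR adjusted p of 0.818). Class means were between 22.1 CPM in Pomc neurons and 40.5 CPM in Foxb1 neurons, apart from Hcrt neurons, whose 2 samples were at 0 and 15.6 CPM.

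Mgll was the 1 member that passed as higher in glia than in neurons. In the 652 astrocyte and tanycyte nuclei it was at 86.8 CPM with rapamycin and 65.9 CPM with vehicle in DIO, 90.2 and 87.4 CPM in OB, and 123 and 140 CPM in chow. In neurons the 6 values were between 17.3 and 21.1 CPM, and the groups did not overlap. The log2 fold change was 2.12 (SE 0.20, edgeR adjusted p of 1.49e-12), and the pooled ratio to neurons was 4.90 (95% counting interval 4.08 to 5.83). After thinning to 1500 UMIs, 13.5% of these nuclei had a Mgll UMI in DIO, 14.8% in OB and 17.5% in chow, against 2.77%, 2.80% and 2.65% of neurons. Cnr1 and Faah were lower in these glia: pooled, they held 3 and 8 UMIs, at 0.0584 times (95% counting interval 0.0120 to 0.171) and 0.165 times (0.0710 to 0.324) the neuronal level, with edgeR adjusted p values of 8.06e-10 and 9.70e-08. Napepld was lower as well, with means of 15.02 ± 6.97 CPM in glia and 28.1 ± 2.35 CPM in neurons (SD, n = 6 each, edgeR adjusted p of 0.00423), but not without the DIO pool (adjusted p of 0.0542). These 4 calls of 6 stand beside 7744 of 15449 genes that passed, or 50.1%, so a call between glia and neurons is common. Dagla and Daglb, pooled, were at 0.741 times (95% counting interval 0.509 to 1.04) and 0.825 times (0.577 to 1.14) the neuronal level and did not pass. Dagla did pass without the chow pool (log2 fold change -0.73, edgeR adjusted p of 0.0449).

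In the 265 oligodendrocyte nuclei Mgll was again higher than in neurons, with 45 UMIs and a pooled level of 67.8 CPM against 19.3 CPM, a ratio of 3.52 (95% counting interval 2.56 to 4.72). It was higher in 5 of 6 samples. The exception was DIO vehicle, where 15 nuclei held no Mgll UMI, and the edgeR adjusted p was 7.17e-08. The 2-AG synthesis enzymes were lower: 2 Dagla UMIs gave a ratio of 0.0946 (0.0115 to 0.342) and 6 Daglb UMIs a ratio of 0.289 (0.106 to 0.631), with edgeR adjusted p values of 1.49e-05 and 0.00246. Cnr1, with 3 UMIs, was at 0.123 times the neuronal level (0.0254 to 0.3599, adjusted p of 9.91e-06). Faah did not pass in oligodendrocytes, at 52.8 CPM against 34.8 CPM in neurons pooled (edgeR adjusted p of 0.118). In all, 4 of 6 members passed, against 39.4% of genes (5610 of 14253). The sums of both glial types are small beside the neuronal sums, and these tests too were chosen after the levels were seen.

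**Figure D3:**
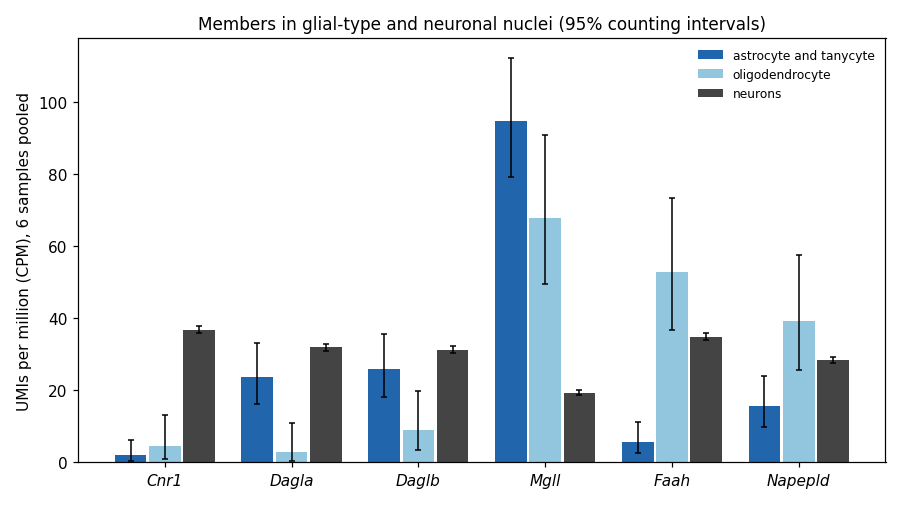
Pooled level of the 6 genes in astrocyte and tanycyte nuclei, oligodendrocyte nuclei and neurons in CPM, with exact 95% counting intervals. Mgll is above neurons in both glial types, at 94.5 and 67.8 CPM against 19.3 CPM, and Cnr1 is at 2.15 and 4.52 CPM against 36.7 CPM.

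The treatments were compared across the 3 pools, with the pool as a block. None of the 6 genes passed in all neurons, where 77 of 17885 genes did by edgeR (0.431%) and 0 by DESeq2, with 1070 and 219 genes at an unadjusted p under 0.05. In GABAergic neurons 0 of 6 members and 0 of 15026 genes passed (0%) by edgeR and 0 genes by DESeq2, with 661 and 75 genes at an unadjusted p under 0.05. In glutamatergic neurons 0 of 6 members and 6 of 13917 genes passed by edgeR (0.0431%) and 0 by DESeq2, with 561 and 48 genes at an unadjusted p under 0.05. Cnr1 came nearest: in all neurons it was at 39.3 CPM with rapamycin and 35.7 CPM with vehicle in DIO, 32.2 and 30.0 CPM in OB, and 40.0 and 35.7 CPM in chow. It was higher with rapamycin in 3 of 3 pools, with a log2 fold change of 0.14 (SE 0.07), an unadjusted p of 0.0371 and an edgeR adjusted p of 0.783. Within pools the log2 ratio was 0.14 in DIO (95% counting interval 0.02 to 0.25), 0.10 in OB (-0.14 to 0.34) and 0.16 in chow (0.04 to 0.28). In glutamatergic neurons Cnr1 had a log2 fold change of 0.21 (SE 0.12) and in GABAergic neurons of 0.01 (SE 0.12), with edgeR adjusted p values of 0.9997 and 0.99998, and the difference between them was not tested.

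Faah, with a log2 fold change of 0.10 (SE 0.07, edgeR adjusted p of 0.971), was also higher with rapamycin in 3 of 3 pools. The other 4 members had log2 fold changes between -0.02 and 0.03, each with an edgeR adjusted p of 0.999. At an SE of 0.07 to 0.08, changes well above that size can go uncalled after adjustment, as that of Cnr1 did. A miss does not show that the levels were equal. Within pools, where a limit of 0.32 was set on the size of a log2 ratio, over all neurons 0 of 6 members were past it in DIO (13.5% of genes), in OB (16.3% of genes) and in chow (7.59% of genes). In GABAergic neurons 0 of 6 were past it in DIO (15.1% of genes), 3 of 6 in OB (29.1%) and 0 of 6 in chow (11.3%). In glutamatergic neurons 1 of 6 was past it in DIO (19.9%), 2 of the 4 with enough UMIs in OB (30.3%) and 0 of 6 in chow (15.6%). Napepld was among them each time: its log2 ratio was -0.39 in DIO glutamatergic (95% counting interval -0.79 to 0.01), 0.69 in OB GABAergic (-0.13 to 1.60) and -0.58 in OB glutamatergic neurons (-1.36 to 0.23). The others were Dagla (0.38, -0.28 to 1.09) and Mgll (-0.41, -1.11 to 0.33) in OB GABAergic and Cnr1 (0.37, -0.28 to 1.07) in OB glutamatergic neurons. All of these intervals span 0. Over all neurons the widest were Mgll in OB, at 17.3 CPM with rapamycin and 20.6 CPM with vehicle (log2 ratio -0.26, 95% counting interval -0.56 to 0.05), and Napepld in OB, at 29.2 and 25.4 CPM (log2 ratio 0.20, -0.06 to 0.46). Counting error alone spans 0 for both.

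**Figure D4:**
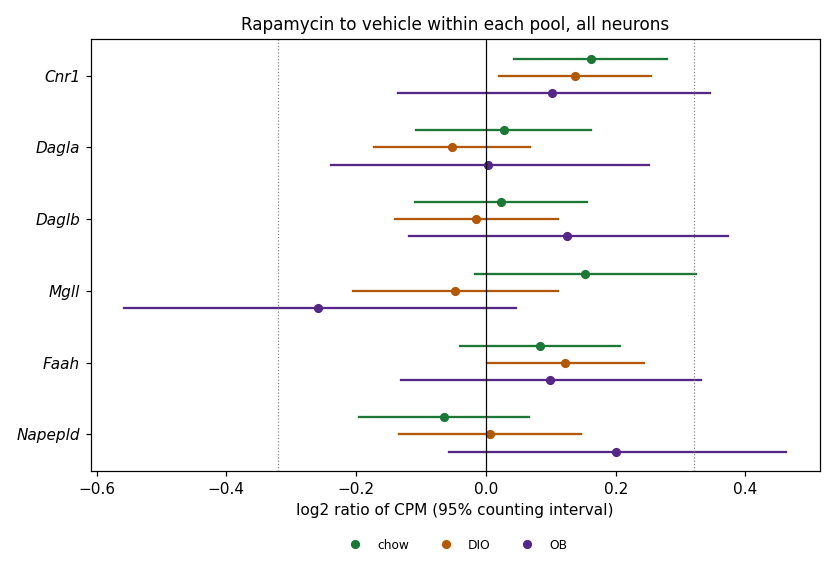
Log2 ratio of CPM in rapamycin to vehicle samples for the 6 genes in all neurons of each pool, with 95% counting intervals and dotted lines at the limit of 0.32 in either direction. Cnr1 lies at 0.14 in DIO, 0.10 in OB and 0.16 in chow, and no gene reaches a dotted line.

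Set against chow, DIO neurons held more Dagla in both treatments, a comparison of single samples with no test. Dagla was at 34.9 CPM with rapamycin and 36.2 CPM with vehicle in DIO, against 29.3 and 28.8 CPM in chow. The log2 ratio was 0.25 with rapamycin (95% counting interval 0.13 to 0.38) and 0.33 with vehicle (0.20 to 0.46). Both transmitter classes showed the same side. In GABAergic neurons Dagla was at 32.2 CPM with rapamycin and 37.8 CPM with vehicle in DIO, against 25.2 CPM with either in chow, with log2 ratios of 0.35 (0.08 to 0.63) and 0.59 (0.32 to 0.85). In glutamatergic neurons it was at 39.6 and 40.0 CPM in DIO against 30.9 and 30.8 CPM in chow, with log2 ratios of 0.36 (0.02 to 0.70) and 0.38 (0.05 to 0.71). Over all neurons, 0 of 6 members were past the limit of 0.32 between DIO and chow with rapamycin (29.2% of genes) and 1 of 6, Dagla, with vehicle (38.6%). In GABAergic neurons Dagla was the 1 member of 6 past it with rapamycin (30.3%) and with vehicle (36.9%). In glutamatergic neurons 2 of 6 were past it with rapamycin (29.7%), Dagla and Napepld, and 1 of 6 with vehicle (38.9%), Dagla. The largest of these counts, 2 of 6, is near its background, and the diet cannot be told apart from the pool.

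Napepld was lower in DIO, at 26.4 CPM with rapamycin and 26.3 CPM with vehicle against 29.9 and 31.3 CPM in chow (log2 ratios -0.18, 95% counting interval -0.31 to -0.04, and -0.25, -0.39 to -0.11). In glutamatergic neurons its log2 ratio was -0.54 with rapamycin (-0.94 to -0.14) and 0.02 with vehicle (-0.35 to 0.39). Mgll was at 20.4 and 21.1 CPM in DIO against 19.3 and 17.3 CPM in chow, and its log2 ratio was 0.08 (-0.08 to 0.24) with rapamycin and 0.28 (0.11 to 0.45) with vehicle. Cnr1, Daglb and Faah differed by less: in DIO their CPM were 39.3, 32.3 and 36.8 with rapamycin and 35.7, 32.6 and 33.8 with vehicle. In chow they were 40.0, 30.6 and 35.5 CPM with rapamycin and 35.7, 30.1 and 33.5 CPM with vehicle.

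In OB neurons Cnr1 was lower than in chow, at 32.2 CPM with rapamycin and 30.0 CPM with vehicle against 40.0 and 35.7 CPM. The log2 ratios were -0.31 (95% counting interval -0.46 to -0.16) and -0.25 (-0.48 to -0.03). The values lay on different sides in the transmitter classes, a difference that was not tested. GABAergic neurons had 20.0 and 19.9 CPM in OB against 27.7 and 29.5 CPM in chow, whereas glutamatergic neurons had 66.6 and 51.3 CPM in OB against 54.9 and 47.6 CPM in chow. The OB vehicle value in GABAergic neurons rests on 21 UMIs, and the log2 ratio of -0.57 there had a counting interval of -1.29 to 0.08. After thinning to 1500 UMIs the log2 ratio of all neurons was -0.31 with rapamycin and 0.06 with vehicle. With GABAergic, glutamatergic and unassigned neurons given equal weight it was -0.06 with rapamycin and -0.16 with vehicle. Over all neurons, 0 of 6 members were past the limit of 0.32 with rapamycin (31.5% of genes) and 0 of 6 with vehicle (36.6%). In GABAergic neurons 1 of 6 was past it with rapamycin (34%), Cnr1, and 3 of 6 with vehicle (43.8%), Cnr1, Mgll and Napepld. In glutamatergic neurons 0 of 6 were past it with rapamycin (38.4%) and 3 of 6 with vehicle (48%), Dagla, Mgll and Napepld, where the OB sum held 5 to 25 UMIs of each. Napepld with vehicle was at 25.4 CPM in OB against 31.3 CPM in chow (log2 ratio -0.30, -0.54 to -0.06), and lay on opposite sides in the transmitter classes: its log2 ratio was -0.96 in GABAergic neurons (-1.82 to -0.20) and 0.80 in glutamatergic neurons (0.11 to 1.43), on 15 and 25 UMIs in OB. With GABAergic, glutamatergic and unassigned neurons given equal weight it was -0.02. With rapamycin the Napepld levels over all neurons were 29.2 CPM in OB and 29.9 CPM in chow. Dagla in OB, at 29.5 and 29.4 CPM, was near the chow values. Both obese pools are set against the same chow samples, and the counting software and the list of genes counted differ for OB.

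**Figure D5:**
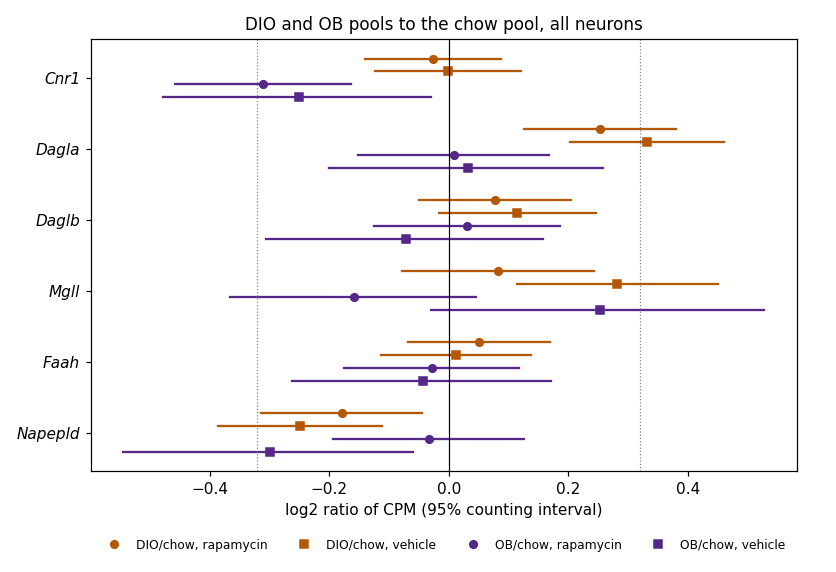
Log2 ratio of CPM in DIO to chow and in OB to chow for the 6 genes in all neurons, given for rapamycin and for vehicle samples with 95% counting intervals and dotted lines at the limit of 0.32 in either direction. Dagla is above 0 in DIO in both treatments, at 0.25 and 0.33, and Cnr1 is below 0 in OB in both, at -0.31 and -0.25.

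The wider pathway was described with 31 further genes (alternative routes of synthesis and breakdown, other receptors, lipid carriers, partners of the CB1 receptor, and receptors that drive 2-AG synthesis). Between GABAergic and glutamatergic neurons 23 could be tested, of which 3 were higher and 5 lower in GABAergic neurons by edgeR, with a median log2 fold change of -0.04, beside 16.5% of all genes called. Those higher were Plcb1 (log2 fold change 0.63), Gnai1 (0.31) and Cnrip1 (0.23), a phospholipase C, a G protein subunit and a protein that binds the tail of the CB1 receptor. Among those lower were Chrm3 (-0.75), Plcb4 (-0.44), Grm5 (-0.36) and Naaa (-0.36), of which Chrm3 and Grm5 encode Gq-coupled receptors that can start 2-AG synthesis. In the ventromedial class, where 14% of all genes were called, 21 were tested against other glutamatergic neurons. Higher were 3, Grm5 (0.77), Plcb1 (0.70) and Plcb4 (0.21), and 3 were lower, among them Chrm3 (-0.96) and Pla2g4e (-0.81). In Hdc neurons (29.7% of all genes called) 6 of 22 were higher, among them Gnai2 (0.64) and Gnai3 (0.63), and 9 were lower, led by Chrm3 (-3.38) and Grm5 (-1.26). In astrocyte and tanycyte nuclei (50.1%) 7 of 26 were higher, led by the fatty acid carrier Fabp7 (6.03) and the nuclear receptor Ppara (5.36), and 10 were lower, among them Grm5 (-4.38) and Pla2g4e (-4.44), an enzyme that makes the anandamide precursor. In oligodendrocyte nuclei (39.4%) 5 of 24 were higher, led by Fabp7 (2.95) and Fabp5 (1.89), and 10 were lower, led by Chrm3 (-4.90).

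For rapamycin 0 of the 29 pathway genes tested in all neurons passed, and 0 of 25 in GABAergic and 0 of 23 in glutamatergic neurons. Past the same limit between DIO and chow with vehicle were 2 of 25 higher, Gnao1 (log2 ratio 0.58) and Gpr55 (0.41), and 5 lower, Plcb2 (-0.79), Fabp5 (-0.47), Cnrip1 (-0.46), Gdpd3 (-0.43) and Fabp3 (-0.36), beside 38.6% of all genes. Between OB and chow with vehicle 5 of 24 were higher, among them Fabp5 (0.68), Gnai2 (0.50) and Fabp3 (0.45), and 1 was lower, Cnrip1 (-0.37), beside 36.6% of all genes. Both pathway counts are shares below that background. The chow samples are shared by these comparisons.

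Genes whose class pattern was most like that of each member were taken by the correlation of log2(mean CPM + 1) over the 12 marker classes, among 11092 genes. These are descriptions over 12 points that share libraries. For Cnr1 they were Sptbn4 (r = 0.92), Glipr1 (0.89), Pdzd4 (0.89), Cacna1c (0.88) and Gda (0.88), all highest in the ventromedial class, where Gda was at 195 CPM against 7.67 CPM in its lowest class. For Mgll they were Plxdc2 (0.93), Ano5 (0.89), Tenm4 (0.85), Trim66 (0.85) and Pknox2 (0.84). For Napepld they were Peli1 (0.91), Hydin (0.90), Sox1 (0.88), Hap1 (0.87) and Tshr (0.85). Dagla was most like Fam19a1 (0.90) and Dzank1 (0.88), Daglb like Gtf3c4 (0.92) and Psma1 (0.89), and Faah like B4galt2 (0.97) and Fmn2 (0.96).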

How the data were processed

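Single-nucleus RNA of 3 hypothalamic pools and their hashtag counts were used. The authors deposited UMI counts per gene and nucleus and hashtag counts per nucleus. Per the file headers these came from Cell Ranger 6.0.0 for chow and DIO and 7.0.1 for OB, and per the submitters' processing notes from Cell Ranger 6.0.0 with the mm10 build. The deposited hashtag key names the first tag rapamycin and the second vehicle. The pools held 10853 (chow), 11405 (DIO) and 12284 (OB) barcodes and 68992028, 71127440 and 39238102 UMIs.

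Nuclei needed at least 500 UMIs, 300 genes and under 5% mitochondrial UMIs. Hashtags were called with HTODemux in Seurat 5.3.0 at a positive quantile of 0.99, which left out 542, 450 and 622 doublets in chow, DIO and OB and the nuclei with no call. Doublets within a hashtag were not removed. Neurons had at least 3 UMIs of 5 neuronal markers and more than of any other list, and 12 of 14 planned marker classes held at least 50 nuclei. UMIs were summed per class and hashtag sample. The glial classes needed at least 5 UMIs of their list.

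Sums were compared in R 4.3.3 with edgeR 4.0.16 (quasi-likelihood test, TMM scaling, low-count filter, Benjamini-Hochberg adjustment over all genes tested, limit 0.05), with DESeq2 1.42.0 as an alternative. Genes that set a class stayed out of its calls. Tests were tried on simulated data first. With 1 hashtag sample per group, ratios within or between pools have no test, only exact 95% Clopper-Pearson intervals. These cover counting error only. A limit of 0.32 on the size of a log2 ratio was applied to genes whose 2 sums held 50 UMIs or more between them. Shares of nuclei used a fixed 1500 UMIs per nucleus. In bulk sums, fewer cells of a type and less RNA per cell cannot be told apart. Alternatives were DESeq2, no filter, a tag ratio in place of HTODemux, other class minimums, thinning and leaving out each pool.

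The 6 genes were named whatever their values, and pathway genes only where past a limit. The members, lists and tests were chosen with earlier results of these data known. The ventromedial, Hdc and glial tests were added after the class levels had been seen. The values of 1 pathway gene are not reported here.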

Additional observations from a re-analysis of the deposited data

How the results depend on the processing

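In every alternative run for the following tests, Cnr1 and Mgll kept their direction and call. The Cnr1 log2 fold change was between -1.35 and -0.93 for GABAergic against glutamatergic neurons, between -0.999 and -0.78 for the same outside the ventromedial class, between 1.31 and 1.47 for ventromedial against other glutamatergic neurons, and between -3.16 and -2.71 for Hdc against other neurons. The Mgll log2 fold change in astrocyte and tanycyte nuclei was between 1.87 and 2.33. Of the 6 members, 2 were called between GABAergic and glutamatergic neurons, against 1 after thinning to 1500 UMIs and between 1 and 2 with a pool left out (1 without chow). Outside the ventromedial class 2 were called, against 1 with DESeq2 and between 1 and 2 with a pool left out (1 without chow or without DIO). The lost call was Dagla in each case. Napepld in oligodendrocyte nuclei had a log2 fold change of 0.93 with a call by tag ratio, against 0.40 without one.

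Thinning to 1500 UMIs raised the members past the limit of 0.32 to 1 for rapamycin in chow, 2 for rapamycin in OB, 2 for DIO to chow with vehicle and 3 for OB to chow with vehicle. For OB to chow with rapamycin TMM scaling gave 1 in place of 0, Cnr1 at -0.34. Thinning leaves few UMIs in each sum, and no share of all genes past the limit is given for thinned or TMM-scaled sums. These counts are therefore not read as a result about the members. Several log2 ratios within transmitter classes changed sign: with classes at 1 UMI, Napepld for rapamycin in glutamatergic neurons was 0.043 in DIO and 0.00062 in OB. After thinning, Mgll in GABAergic neurons was 1.21 for rapamycin in OB and -0.99 for OB to chow with vehicle, and Cnr1 in GABAergic neurons was 0.13 for OB to chow with vehicle. The cause was not tested.

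The number of genes called moved more. For rapamycin in all neurons it was 77, against 0 with DESeq2, 21 by tag ratio, 6 after thinning and between 3 and 221 with a pool left out. In GABAergic neurons it was 0, against 17 with no filter and between 7 and 97 with a pool left out, and in glutamatergic neurons 6, against 0 with DESeq2, 13 with no filter and between 0 and 34 with a pool left out. Between transmitter classes it was 2394, against 1489 with DESeq2 and 939 after thinning, and outside the ventromedial class 2241, against 1379 with DESeq2. It was 1449 for ventromedial neurons, against 945 with DESeq2 and 763 without DIO, 4373 for Hdc neurons, against 2835 without DIO, and 5610 for oligodendrocytes, against 3511 without chow. With at least 1 more UMI per class marker, 28 ventromedial nuclei remained and no sample had 10, so that order could not be given. Each group has a single hashtag sample, so no pairing by replicate number was possible. The fits paired sums only through the hashtag sample or the pool as a block.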

Other observations

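A few smaller groups of nuclei held members at levels that no comparison above uses. In 10 microglial nuclei, pooled over samples, Daglb had 7 UMIs and 393 CPM (95% counting interval 158 to 809), against 31.3 CPM in neurons. In 36 oligodendrocyte precursor nuclei Mgll had 18 UMIs and 168 CPM (99.8 to 266), against 19.3 CPM in neurons. In 54 nuclei with pituitary markers Napepld had 11 UMIs and 78.6 CPM (39.2 to 141), against 28.4 CPM in neurons, and Cnr1 had none, which allows up to 21.4 CPM. No test was made of these few nuclei, nor of the 1368 nuclei that met no rule for a neuron or another type. In those 1368 nuclei Mgll had 159 UMIs and 79.7 CPM (67.8 to 93.1), 4.13 times the neuronal level (3.50 to 4.85). A high Mgll level was therefore also seen outside the nuclei named as glia, and what cell types the 1368 nuclei belong to was not tested.

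The Pomc class of the OB vehicle sample (65 nuclei) differed from the other 5 in its markers. Pomc was at 31883 CPM there, against 1076 to 6752 CPM in the others, and Lepr at 11.05 CPM, against 106 to 223 CPM. The growth hormone gene Gh had 18 UMIs and 99.4 CPM, against at most 12.1 CPM. Without that sample the Cnr1 mean of the class was 18.2 CPM, against 15.2 CPM with it. A single chow nucleus with rapamycin held 21 Cnr1 UMIs.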
